A study of Mus musculus with 6 samples.

Results

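Cullin-RING ligases are the most numerous ubiquitin ligases of mammalian cells, and the genes described here encode the exchangeable parts that select what they mark. They were the genes whose symbols begin with Fbxo, Fbxl, Fbxw, Klhl, Kbtbd or Asb followed by a number, apart from the 5 muscle ligase genes Fbxo32, Fbxo30, Fbxo21, Fbxo40 and Asb2. The rule found 138 genes among the 24532 of the table, namely 33 Fbxo, 19 Fbxl, 22 Fbxw, 37 Klhl, 9 Kbtbd and 18 Asb genes. Both Fbxl12os and Asb17os, antisense transcripts that the symbols match, are counted among them.

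A cullin scaffold holds a RING protein, which brings the ubiquitin-loaded enzyme, at one end, and a substrate receptor at the other. F-box proteins bind cullin 1 through Skp1, and their names give the rest of the protein: leucine-rich repeats in Fbxl, WD40 repeats in Fbxw and other or no known repeats in Fbxo. BTB-kelch proteins of the Klhl and Kbtbd families join the linker and the receptor in 1 protein and bind cullin 3. Asb proteins carry ankyrin repeats and a SOCS box, through which elongins B and C link them to cullin 5. Skeletal muscle is known for several receptors of the kelch family, among them Klhl40, Klhl41 and Kbtbd13, whose human counterparts are nemaline myopathy genes.

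RNA came from whole gastrocnemius, the large calf muscle, of C57BL/6 mice aged 12 weeks. All 6 mice carried floxed alleles of Usp21, which encodes a ubiquitin-specific protease. The 3 control mice (USP21 flox/flox, with the genotype entered as Litter) are listed without Cre, and the 3 knockout mice had Ckmm-Cre, a recombinase under the muscle creatine kinase promoter, which is active in striated muscle fibres and leaves Usp21 intact in the other cells of the tissue. Knockout was compared with control to see what loss of Usp21 does to muscle RNA, and log2 fold changes are knockout minus control. No group had Cre without floxed Usp21, so loss of Usp21 and presence of Cre cannot be told apart. The labels give neither the deleted exons nor shared litters, and p-values reflect only how these 6 samples vary.

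Total counts ran from 48658436 to 67332846 per library. Usp21 itself, at 19.3, 19.3 and 19.2 CPM (counts scaled to library size) in controls 1 to 3, stood at 9.08, 7.19 and 7.47 CPM in knockouts 1 to 3 (log2 fold change -1.28, SE 0.11, edgeR adjusted p = 0.0355). The call was lost in 4 of the 6 fits that left out a library. The 8 defining genes of skeletal muscle were all detected, and summed to between 141154 and 172677 CPM in the controls, and to between 161538 and 190370 CPM in the knockouts. Slow fibre markers, 7 genes, summed to 1297, 1252 and 133 CPM in controls 1 to 3 against 943, 656 and 1582 CPM in knockouts 1 to 3, with control 3 the lowest by a wide margin. Fibroblast markers, all 7 with a positive log2 fold change, summed to 1490 to 2288 CPM in the controls against 2237 to 2675 CPM in the knockouts. Macrophage and leukocyte markers (7 of 8 positive) summed to 103 to 177 and 109 to 187 CPM, endothelial markers (2 of 5 positive) to 280 to 375 and 309 to 348 CPM, Schwann cell markers (1 of 5 positive) to 110 to 271 and 94.0 to 352 CPM, and adipocyte markers (2 of 4 positive) to 12.3 to 55.4 and 19.97 to 65.2 CPM. None of these markers was at 0 in all 6 libraries. In whole muscle, fewer cells of a type and less RNA per cell cannot be told apart.

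Levels of the adaptors are given first, in FPKM, which scales to gene length and so allows genes to be compared. The most abundant of the 138 was Klhl41, a kelch protein of the sarcomere periphery, at 211, 260 and 167 FPKM in controls 1 to 3 and 173, 173 and 211 FPKM in knockouts 1 to 3. The groups overlapped, and control 2 was the highest library. Asb5 came next, at 159, 183 and 166 FPKM in controls and 186, 215 and 148 FPKM in knockouts. Its mean over the 6 libraries, 176 ± 23.9 FPKM (SD, n = 6), lay within the spread of that of Klhl41, 199 ± 35.8 FPKM (SD, n = 6), so these neighbours in the order did not differ beyond their spread. Asb11 followed at 107 ± 13.0 FPKM, and all 6 of its libraries lay below every library of Asb5 and Klhl41.

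**Figure D1:**
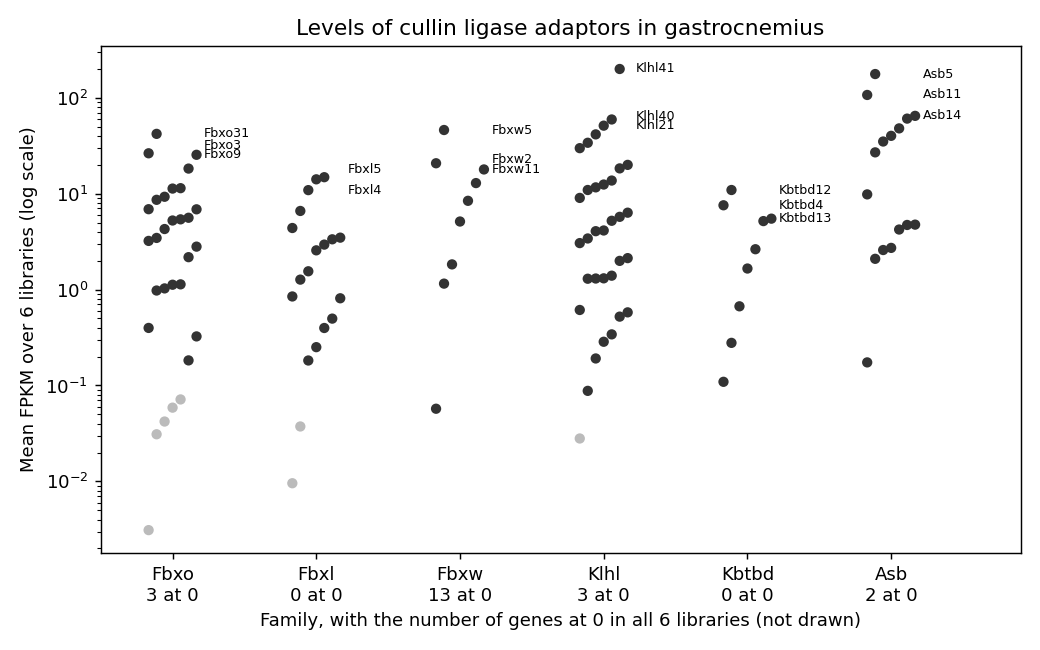
Mean FPKM over the 6 libraries (vertical axis, log scale) of each member with any reads, by family. Black points are genes that were tested, grey points genes that were not, and the most abundant genes of each family are named. Klhl41, Asb5 and Asb11 stand above 100 FPKM on average.

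The Asb family divided into an abundant and a scarce set in this muscle. Asb14 (64.7 FPKM), Asb10 (60.5), Asb8 (47.9), Asb15 (40.0), Asb16 (34.9) and Asb12 (26.9) joined Asb5 and Asb11, making 8 of 18 members at a mean of 10 FPKM or more. Asb13 (9.82 FPKM) came next, and the remaining members were at or below 4.75 FPKM, the level of Asb4. Asb9, a receptor for brain-type creatine kinase, and the antisense transcript Asb17os had no count in any library.

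Among the kelch genes, 12 of 37 Klhl members and 1 of 9 Kbtbd members reached a mean of 10 FPKM. Klhl40, which stabilises thin filament proteins together with Klhl41, stood at 50.5, 81.3 and 55.4 FPKM in controls and 57.9, 63.7 and 46.9 FPKM in knockouts. Klhl21, a receptor known from cell division, was at 51.1 FPKM on average and Klhl31, a muscle-enriched member, at 41.5 FPKM. Klhl33 (33.9 FPKM), Klhl30 (29.8) and Klhl38 (19.9) followed. Within Kbtbd the highest levels were those of Kbtbd12 (10.9 FPKM) and Kbtbd4 (7.56 FPKM), and Kbtbd13 was at 5.48 FPKM. In the gene models of GENCODE, Kbtbd4 shares 1545 of its 2440 exon bases with Ptpmt1 and 88 with Ndufs3 on the opposite strand, and Klhl40 shares 456 of 2370 with a predicted gene. Whether strand was used in counting is not given in the sources used here, so reads of such partners cannot be told apart.

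By family, the median level was 2.80 FPKM in Fbxo, 1.55 in Fbxl, 0 in Fbxw, 3.41 in Klhl, 2.63 in Kbtbd and 7.29 in Asb. The 74 F-box genes together had a median of 1.14 FPKM, with 16 of them at 0 in all libraries, and the 46 kelch genes 3.23 FPKM, with 3 at 0. Fbxw5 (46.0 FPKM), Fbxo31 (42.0), Fbxo3 (26.3), Fbxo9 (25.4) and Fbxw2 (20.7) were the highest F-box genes. Fbxo31 is known as a receptor for cyclin D1, and Fbxw5 also works with Ddb1 and cullin 4. Fbxl5, the iron-sensing receptor for iron regulatory protein 2, was at 14.8 ± 0.742 FPKM (SD, n = 6).

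**Figure D2:**
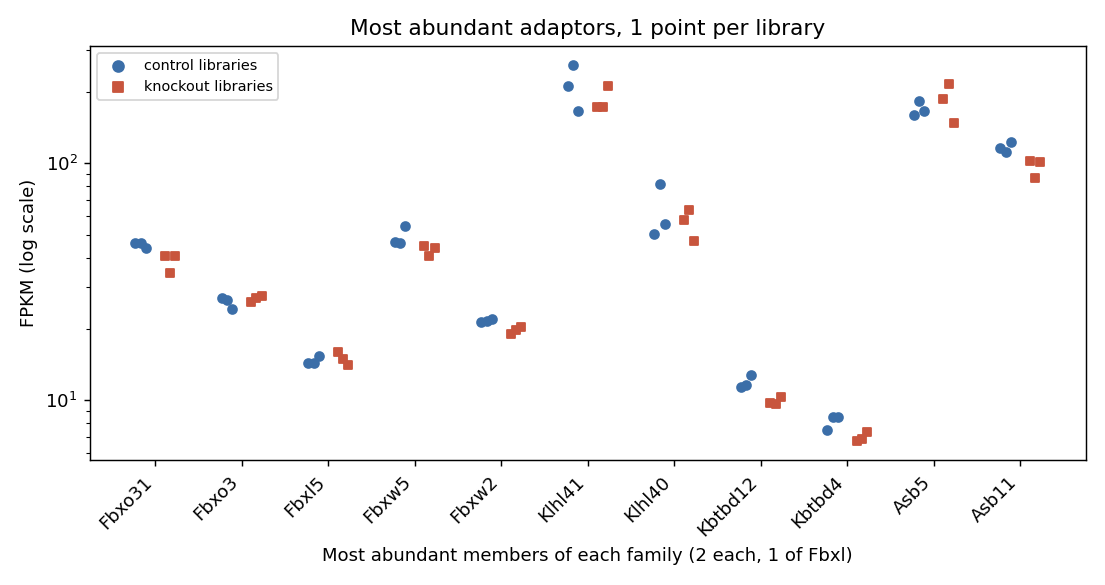
FPKM (log scale) of the most abundant members of each family (2 each, 1 of Fbxl) in each library, with controls as circles and knockouts as squares. The 2 groups overlap for Klhl41, Klhl40, Asb5 and Fbxl5, and the knockouts lie below the controls for Fbxo31 and Asb11.

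A block of 13 Fbxw genes (among them Fbxw13 and Fbxw28) lies between 109139454 and 109790660 on chromosome 9 of GRCm38. All 13 had 0 counts in all 6 libraries. A count of 0 allows up to 3 counts per library, or between 0.0454 and 0.0598 CPM at these depths, counting error only. The other 9 Fbxw genes, on other chromosomes, were all tested, and 4 of them were at 10 FPKM or more. Fbxo15, Fbxo16, Fbxo43, Klhl1, Klhl14 and Klhl35 were the remaining coding members with no count besides Asb9, so 21 of the 138 symbols were at 0 throughout. A further 8 had between 9 and 57 counts over the 6 libraries and did not pass the filter on low counts, which left 109 members for the test.

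The promoters of 3 members are shown for their place among the measured values: Klhl41 as the most abundant, Kbtbd13 as the kelch gene with the smallest p among the nemaline myopathy genes, and Fbxo9 as the lower member with the smallest p. Each is the 250 bases before a start site in RefSeq (GRCm38.p6), written 5′ to 3′ on the gene's strand. That start site is also the end of the gene in the RefSeq table. Fbxo9 has 2 such windows, and only the one furthest upstream is shown. Capitals mark every CANNTG, the E box that myogenic factors can bind, and clock factors in its CACGTG form. The windows are chr2:69669870-69670119 (plus strand), chr9:65391653-65391902 (minus strand) and chr9:78109066-78109315 (minus strand).
Klhl41: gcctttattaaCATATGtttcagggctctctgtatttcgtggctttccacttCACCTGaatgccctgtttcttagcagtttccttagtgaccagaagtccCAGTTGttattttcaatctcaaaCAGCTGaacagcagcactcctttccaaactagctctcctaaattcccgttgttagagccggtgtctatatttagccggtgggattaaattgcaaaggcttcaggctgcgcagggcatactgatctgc
Kbtbd13: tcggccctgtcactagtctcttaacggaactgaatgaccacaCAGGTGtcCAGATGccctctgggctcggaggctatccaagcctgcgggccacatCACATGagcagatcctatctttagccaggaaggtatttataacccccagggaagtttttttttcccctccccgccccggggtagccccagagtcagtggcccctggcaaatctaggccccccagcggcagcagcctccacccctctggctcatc
Fbxo9: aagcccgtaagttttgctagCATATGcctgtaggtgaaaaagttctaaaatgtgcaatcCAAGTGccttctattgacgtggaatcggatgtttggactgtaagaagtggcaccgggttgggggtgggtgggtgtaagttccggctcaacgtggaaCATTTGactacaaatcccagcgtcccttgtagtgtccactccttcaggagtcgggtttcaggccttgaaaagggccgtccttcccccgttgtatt
Klhl41 held 4 E boxes, Kbtbd13 held 3 and Fbxo9 held 3. Of all 32851 windows of this length in the table, 66.2% held at least 1, so a match is common. The CACGTG form was in none of the 3 and in 6.02% of all windows. The sequence TATAAA, searched on both strands like the others, was found in the Kbtbd13 window on the opposite strand, 119 bases before the start, and in 12.4% of all windows. GGGCGG was likewise found in the Kbtbd13 window and in 32.7% of all windows, and the FoxO sequence GTAAACA in none of the 3 and in 3.17% of all windows. These matches describe the letters of the windows and show no binding.

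In the comparison of knockout with control muscle, no member passed the threshold of an edgeR adjusted p under 0.05, where 0.0567% of all 14109 tested genes (5 higher, 0.0354%, and 3 lower, 0.0213%) did. The smallest adjusted p among the 109 members was 0.224. At an unadjusted p under 0.05, 5 members were higher and 9 lower in knockouts, or 12.8% of members tested, against 11.6% of all genes (6.56% higher and 5.07% lower). Over both directions together, the share of members was therefore near that of all genes. By direction, more members were lower than higher, where more of all genes were higher than lower, and this was not tested. These counts changed when single libraries were left out, and in the fits listed next the share of all genes fell too. The higher count was 2 without control 1 (3.55% of all genes), 2 without control 3 (5.58%), 1 without knockout 1 (3.51%) and 3 without knockout 2 (4.21%). The lower count was 3 without knockout 1 (3.05% of all genes) and 5 without knockout 2 (2.82%). Each count was also larger in at least 1 other such fit, and the ranges are given in the last section. On log2(FPKM + 1) with limma the split was 1 higher and 21 lower, where 3.38% of all genes were higher and 9.99% lower. The Wald test of DESeq2 called 2 members, Klhl2 and Fbxo9, among the 2.06% of genes it called. Limma-voom called none.

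Klhl2, a kelch receptor for WNK kinases, had the smallest p of all members. It stood at 6.42, 7.70 and 9.17 CPM in controls 1 to 3 against 12.8, 12.3 and 13.5 CPM in knockouts 1 to 3. Every knockout was above every control, and knockouts were closer together than controls. The log2 fold change was 0.73 (SE 0.14, 95% interval 0.40 to 1.06; edgeR adjusted p = 0.224), or 1.66-fold. Leaving out libraries in turn gave an adjusted p of 0.115 (without knockout 3) to 0.735 (without control 1), and DESeq2 gave an adjusted p of 0.00157. Klhl2 (Entrez 77113) lies on chromosome 8, from 64739673 to 64850169 (GRCm38).

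Fbxo9, an F-box protein known to act on components of mTOR complexes, stood at 66.6, 59.4 and 64.1 CPM in the controls against 42.3, 45.6 and 52.4 CPM in the knockouts. The groups did not overlap, and the knockout mean was 0.738 of the control level on the fitted scale. Its log2 fold change of -0.44 had an SE of 0.10 (95% interval -0.67 to -0.21; edgeR adjusted p = 0.263). The adjusted p was 0.0591 without knockout 3 and 0.763 without control 1, and DESeq2 gave an adjusted p of 0.0173. Fbxo9 (Entrez 71538) lies on chromosome 9, from 78081499 to 78109065, and 1 of its 2 promoter windows is printed above.

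**Figure D3:**
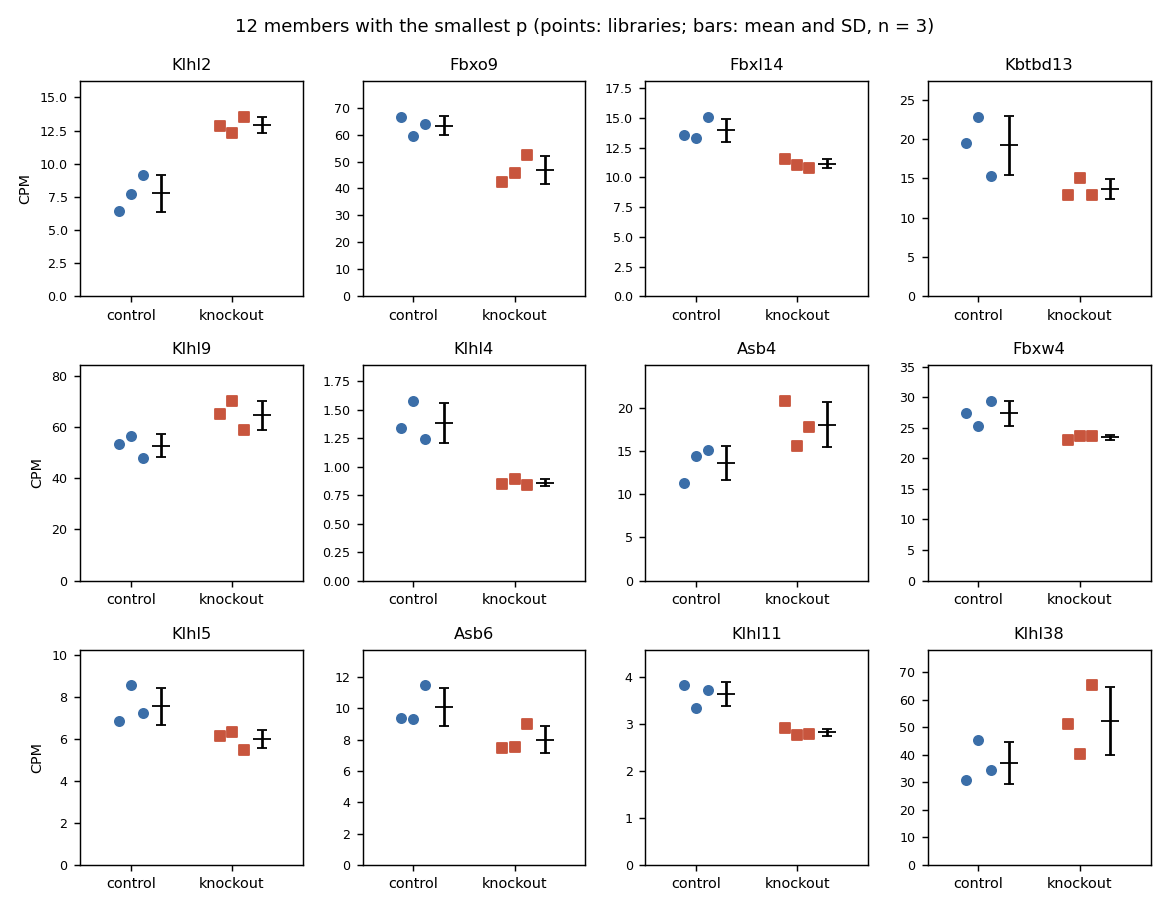
CPM (vertical axes, from 0) of the 12 members with the smallest p, 1 point per library, with the mean and SD of each group (n = 3). The groups do not overlap except for Klhl38.

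Among the other F-box genes, Fbxl14, which targets Snail family factors, was at 13.6, 13.3 and 15.1 CPM in the controls against 11.5, 11.1 and 10.8 CPM in the knockouts. The groups were apart, with a log2 fold change of -0.33 (SE 0.092, edgeR adjusted p = 0.325). Fbxw4 was at 27.4, 25.3 and 29.3 CPM in the controls against 22.9, 23.6 and 23.7 CPM in the knockouts, again with no overlap and with knockouts close together (-0.23, SE 0.083, adjusted p = 0.383). Fbxo31 averaged 195 ± 4.31 CPM in the controls against 174 ± 10.5 CPM in the knockouts (SD, n = 3 each; -0.16, edgeR adjusted p = 0.477). Fbxo3 averaged 113 ± 2.58 and 125 ± 6.82 CPM (0.14, edgeR adjusted p = 0.523), with every knockout above every control. Fbxo27, a scarce member for sugar-bearing substrates at 0.492 and 0.818 CPM, had a log2 fold change of 0.72 with a wide error (SE 0.40, edgeR adjusted p = 0.538).

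Of the leucine-rich repeat members, Fbxl4, a mitochondrial protein that limits mitophagy receptors, was at 29.0, 25.9 and 37.4 CPM in the controls against 24.96, 26.8 and 25.3 CPM in the knockouts. Control 3 was the highest library and control 2 lay within the knockouts (log2 fold change -0.26, SE 0.14, edgeR adjusted p = 0.509). Fbxl17, which removes wrongly paired BTB proteins, averaged 107 and 121 CPM (0.18, edgeR adjusted p = 0.506), and Fbxl7 averaged 2.06 and 2.62 CPM (0.34, edgeR adjusted p = 0.517). For both, every knockout was above every control. Fbxl5 averaged 41.5 and 44.4 CPM (0.096, edgeR adjusted p = 0.723). For the WD40 repeat members Fbxw5, Fbxw2, Fbxw8, a partner of cullin 7, and Fbxw11, which recognises phosphorylated beta-catenin and I-kappa-B, log2 fold changes were -0.12, -0.069, -0.085 and -0.094, each with an adjusted p of 0.694 or more. Fbxw8 shares 1845 of its 5000 exon bases with a predicted gene on the opposite strand.

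Of 42 tested kelch genes, 9 had an unadjusted p under 0.05 (21.4%, against 11.6% of all genes), 8 of them in Klhl. Of 51 tested F-box genes 3 did (5.88%), and of 16 Asb genes 2 did (12.5%). Whether the families differ was not tested. Kbtbd13 stood at 19.4, 22.8 and 15.3 CPM in the controls against 12.8, 15.1 and 12.9 CPM in the knockouts. Control 3 and knockout 2 were close, without overlap, and the difference on the log2 scale was -0.50 (SE 0.15, edgeR adjusted p = 0.363). Klhl9, a cullin 3 receptor of mitosis and a distal myopathy gene, was at 53.3, 56.7 and 47.8 CPM in the controls against 65.1, 70.1 and 58.8 CPM in the knockouts (0.30, SE 0.10, adjusted p = 0.363). GENCODE places a predicted gene on the opposite strand over 661 of the 4174 exon bases of Klhl9. Klhl4 was at 1.34, 1.57 and 1.24 CPM in the controls against 0.844, 0.892 and 0.840 CPM in the knockouts (-0.69, SE 0.24, adjusted p = 0.367). It is a scarce transcript whose knockout values lay close together below all controls.

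The remaining kelch genes of that count were Klhl5, Klhl11, Klhl17, Klhl28 and Klhl38. Klhl5 averaged 7.56 ± 0.879 CPM in the controls against 6.00 ± 0.448 CPM in the knockouts (SD, n = 3 each; log2 fold change -0.33, edgeR adjusted p = 0.396). Klhl11 (3.64 and 2.83 CPM; -0.36) and Klhl17 (13.5 and 11.3 CPM; -0.27) were also lower in every knockout, and Klhl28 (5.17 and 6.37 CPM; 0.30) was higher in every knockout. Klhl38 was at 31.0, 45.5 and 34.6 CPM in the controls against 51.3, 40.4 and 65.3 CPM in the knockouts, so control 2 lay above knockout 2 (0.50, SE 0.20, edgeR adjusted p = 0.407). It shares 1446 of 2212 exon bases with a predicted gene on the opposite strand. Values were seen before Klhl11, Klhl17, Klhl28 and Klhl38 were picked for naming. The abundant sarcomeric pair differed by less than its spread: Klhl41 averaged 531 ± 95.7 and 489 ± 50.4 CPM (-0.12, adjusted p = 0.791) and Klhl40 averaged 151 ± 35.2 and 144 ± 26.2 CPM (-0.071, adjusted p = 0.919) in controls and knockouts. Without control 2 their log2 fold changes were 0.011 and 0.12. Kbtbd12 averaged 24.2 and 21.0 CPM with no overlap (-0.20, adjusted p = 0.469), Kbtbd8 3.51 and 2.91 CPM with no overlap (-0.27, adjusted p = 0.542) and Kbtbd4 19.3 and 17.3 CPM (-0.16, adjusted p = 0.568).

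In the Asb family, Asb4, known from blood vessels, was at 11.4, 14.4 and 15.1 CPM in the controls against 20.8, 15.6 and 17.9 CPM in the knockouts. Knockout 2 lay close to control 3, and the difference on the log2 scale was 0.41 (SE 0.15, edgeR adjusted p = 0.380). Asb6 was at 9.41, 9.34 and 11.5 CPM in the controls against 7.47, 7.53 and 8.999 CPM in the knockouts, without overlap (-0.33, SE 0.13, adjusted p = 0.403). Asb11, the second most abundant Asb gene, was at 183, 171 and 205 CPM in the controls against 168, 149 and 166 CPM in the knockouts. Knockout 1 lay just under control 2 (-0.21, SE 0.097, adjusted p = 0.456). Asb18 averaged 7.56 and 5.79 CPM (-0.38, adjusted p = 0.457), with knockout 3 inside the control range. Asb5 averaged 264 ± 15.1 and 302 ± 65.2 CPM (0.19, adjusted p = 0.670), with knockout 2 the highest and knockout 3 the lowest library.

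Most fold changes of the members were small, as were those of all tested genes. Their log2 fold changes ran from -0.69 to 0.73, and 79 of 109 lay within 0.25 of zero (72.5%, against 69.6% of all tested genes). Beyond 1.5-fold in either direction were 6 of the 109 members, and 1246 of all 14109 tested genes. Of the 109, 76 had a negative log2 fold change (69.7%) and 33 a positive one, where 50.7% of all genes were negative. The median was -0.085 against -0.0037 over all genes. Of the receptors of the same ligases with other names, described below, 36 of 51 were negative (70.6%). Of the cullins, RING proteins and linkers, 9 of 16 were (56.25%). By family, 18 of 25 Fbxo, 10 of 17 Fbxl, 8 of 9 Fbxw, 22 of 33 Klhl, 7 of 9 Kbtbd and 11 of 16 Asb genes were negative, with medians of -0.054, -0.024, -0.085, -0.12, -0.16 and -0.10. This is a count of directions, most of them smaller than their errors, and was not tested. The 7 fibroblast markers all had positive values, and their part in these counts was not tested. Without control 3, 69 of 109 were negative (63.3%, against 49.7% of all genes) with a median of -0.071; without the other libraries in turn the median ran from -0.090 to -0.077. The Fbxl median turned to 0.031 without control 1, 0.017 without control 3 and 0.0012 with limma-voom, and the Fbxw median was -0.023 without control 3.

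**Figure D4:**
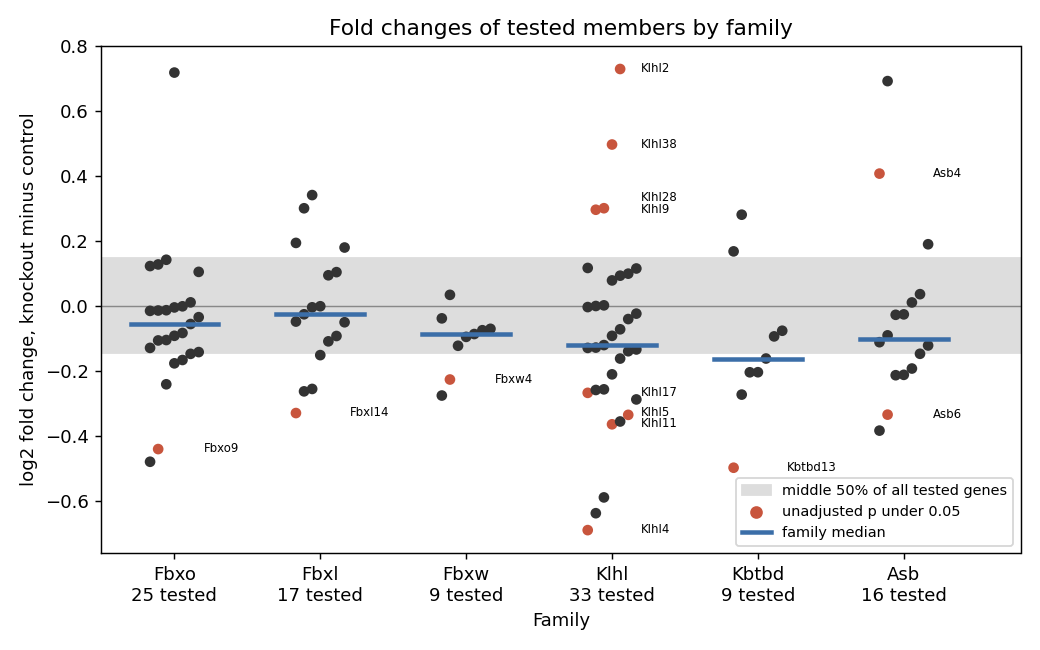
Log2 fold change of each tested member by family, with the family median as a blue line and the middle 50% of all tested genes as a grey band. Red points have an unadjusted p under 0.05 and are named, and all 6 medians lie below 0, although that of Fbxl was 0.0012 with limma-voom.

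Groups did not overlap for 23 of the 109 members, 7 higher and 16 lower in knockouts, or 21.1%, against 17.3% of all tested genes (8.38% higher and 8.87% lower). For each of these members the two-sided p of an exact permutation test was 0.1, which 3 against 3 libraries cannot go below. On the authors' FPKM scale the split was 1 higher and 31 lower, where 4.42% of all genes were higher and 15.7% lower, so the split depended on the scale. Without control 3 the split in CPM was 12 and 26, where 14.3% and 15.7% of all genes were apart, and without knockout 3 it was 12 and 32, where 18.1% and 18.1% were. The lower count was also 27 without control 2 (16.3% of all genes) and 27 without knockout 2 (12.7%). Control 3 was the highest library for 30 members and knockout 3 the lowest for 30, or 27.5% each, where the same libraries were highest and lowest for 22.3% and 15.8% of all genes.

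Some members varied widely over the 6 libraries, by a measure that takes in differences within groups and between them. Of the 76 tested members with a mean of at least 5 CPM, Klhl34 varied most, at 23.6, 30.4 and 5.60 CPM in the controls against 10.7, 9.20 and 19.8 CPM in the knockouts (coefficient of variation 58.0% over the 6 libraries). Its control 3 value was the lowest of all, as was the sum of the slow fibre markers in that library. On the log2 scale the groups differed by -0.59 (SE 0.57, edgeR adjusted p = 0.723). Asb15 was at 145, 198 and 172 CPM in the controls against 136, 110 and 274 CPM in the knockouts, with knockout 3 far above the other knockouts (33.8%). Klhl30 was at 79.3, 106 and 79.0 CPM in the controls against 115, 109 and 58.4 CPM in the knockouts, with knockout 3 the lowest library (24.5%). Klhl2, Klhl38 and Kbtbd13 were the others among the 6 most variable members. The groups of Klhl2 and Kbtbd13 did not overlap, so their variation included the difference between groups. Slow fibre markers were highest in knockout 3 and lowest in control 3, and their part in these values was not tested. This rule and these genes were chosen after the values were seen.

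**Figure D5:**
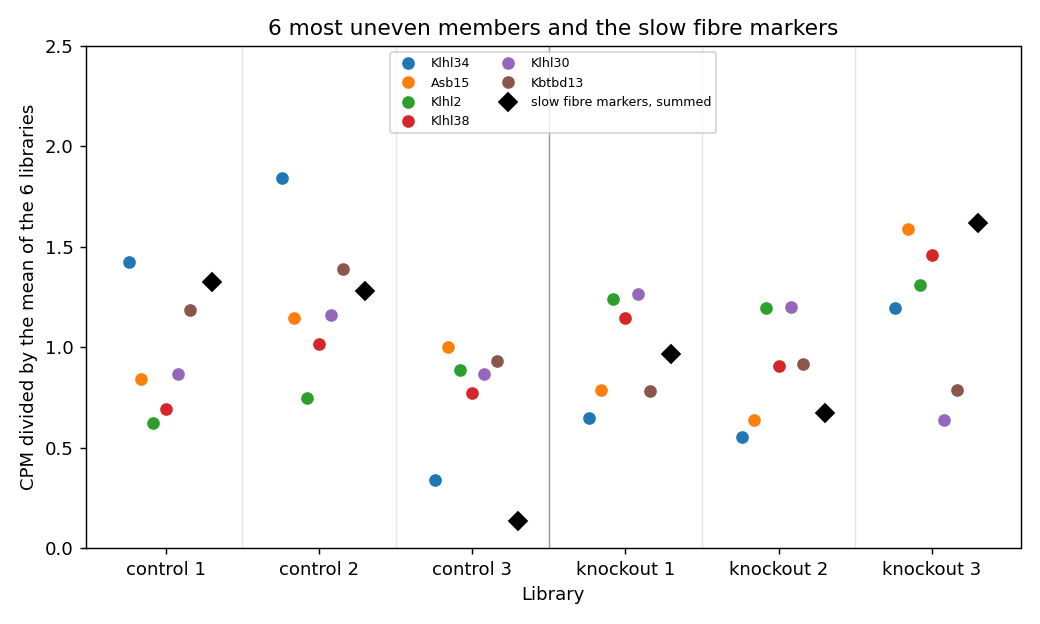
CPM of the 6 most variable members divided by each gene's mean over the 6 libraries (circles), beside the summed slow fibre markers (diamonds). Slow markers and Klhl34 are both lowest in control 3, while Asb15 is highest and Klhl30 lowest in knockout 3.

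The machinery that the adaptors plug into was also measured. Of 16 cullins, RING proteins and linkers, 7 were on the positive side and 9 on the negative side, with a median of -0.0034 and all within 0.25 of zero. None passed the threshold or had an unadjusted p under 0.05. Cul5, the scaffold of the Asb ligases, was at 89.9 ± 3.62 CPM without Cre and 98.2 ± 3.85 CPM with it (SD, n = 3 each; log2 fold change 0.13, edgeR adjusted p = 0.568), and Cul9 averaged 33.6 and 30.6 CPM (-0.14, edgeR adjusted p = 0.563).

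Of 13 genes of neddylation, which switches cullins on, and of receptor exchange, 4 were positive and 9 negative with a median of -0.10. None passed, and 1 was higher and 2 lower at an unadjusted p under 0.05 (23.1% of the list, against 11.6% of all genes). Cand1, which exchanges F-box receptors on cullin 1, was higher in every knockout at 15.9 ± 1.08 and 19.3 ± 1.72 CPM in the controls against knockouts (n = 3 each, SD; log2 fold change 0.28, SE 0.10, edgeR adjusted p = 0.376). Dcun1d4, which helps load Nedd8 on cullins, was lower in every knockout at 13.6 and 11.4 CPM (-0.25, SE 0.090, edgeR adjusted p = 0.370). The other lower gene was Ube2m, named after its values were seen. It was at 96.6, 49.2 and 100 CPM in controls 1 to 3 against 53.7, 52.9 and 56.9 CPM in knockouts 1 to 3. Control 2 thus lay below every knockout (-0.59, SE 0.25, edgeR adjusted p = 0.416). Of 9 subunits of the COP9 signalosome, which removes Nedd8, 2 were positive and 7 negative with a median of -0.052, and none passed or had an unadjusted p under 0.05. Cops7b was at 12.7 and 10.9 CPM (-0.22, edgeR adjusted p = 0.445) and Cops2 at 95.1 and 106 CPM (0.15, edgeR adjusted p = 0.581).

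Of 51 tested receptors of the same ligases with other names (52 listed), 15 were positive and 36 negative with a median of -0.063. None passed the threshold, and 1 was lower at an unadjusted p under 0.05 (1.96% of the list, against 11.6% of all genes). That gene was Vhl, the cullin 2 receptor for hypoxia-inducible factors, at 7.49 ± 0.365 CPM in the controls against 5.49 ± 0.708 CPM in the knockouts (n = 3 each, SD; log2 fold change -0.45, SE 0.13, edgeR adjusted p = 0.343). Rhobtb1, a cullin 3 receptor, averaged 36.0 and 41.8 CPM and was higher in every knockout (0.22, SE 0.093, edgeR adjusted p = 0.432).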

How the data were processed

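Poly(A)-selected RNA of 6 gastrocnemius samples (3 control, 3 knockout) was sequenced from strand-preserving libraries, per the labels' protocols. Read counts per gene were deposited as whole numbers, unnormalized, per the file headers. The deposited FPKM and TPM columns hold the authors' own normalized values; TPM was not used. Bowtie2 2.3.4.1 and StringTie 1.3.4d are named with mm10, per the submitters' processing notes, without roles.

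Counts were tested with edgeR 4.0.16 (R 4.3.3): filterByExpr with a minimum count of 10 (14109 of 24532 genes), TMM scaling, quasi-likelihood test, and Benjamini-Hochberg adjustment over all tested genes, threshold 0.05. Standard errors came from the F statistic. Log2 CPM used a prior count of 2. Scripts were tested on simulated data. At these depths a count of 0 allows up to 3 counts, counting error only.

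Named genes were Usp21 and, per family, members past the threshold or else the 4 with the smallest p, the 2 highest in mean FPKM, and per other list those past the threshold or else the 2 with the smallest p; others are marked in the text as chosen after their values were seen, or are named for their level. The values of 1 member are not reported here. Members and lists were chosen with earlier results of these data known. Alternatives were DESeq2 1.42.0, limma 3.58.1 (voom, and log2 of FPKM plus 1 or 0.1), other scalings and filters, a replicate term and leaving out libraries. Positions and promoters are from RefSeq (GRCm38.p6), where all 138 members were found, and exon overlaps from GENCODE M21.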

Additional observations from a re-analysis of the deposited data

How the results depend on the processing

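No member had an adjusted p under 0.05 in edgeR with the scalings, filters and left-out libraries tried, in limma, or with a replicate block, and none was under 0.10 in the test as reported. Fbxo9 was at 0.0591 without knockout 3, and DESeq2's Wald test called 2 members. Over all genes, 5 were higher and 3 lower; DESeq2 called 210 and 80, limma-voom called 1 lower, limma on log2(FPKM + 1) and on log2(FPKM + 0.1) each 1 higher and 0 lower, the replicate block 0 and 0, and fits without single libraries 1 to 120 higher and 0 to 21 lower.

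Of the members with an unadjusted p under 0.05, 1 lay higher and 21 lower on log2(FPKM + 1) (3.38% and 9.99% of all genes), 1 and 20 on log2(FPKM + 0.1) (3.43% and 10.1%), 2 and 5 with the replicate block (5.04% and 3.21%), and 1 to 6 higher and 3 to 12 lower without single libraries. Members whose groups did not overlap were 1 higher and 31 lower with either FPKM setting (4.42% and 15.7% of all genes), and 7 to 12 higher and 16 to 32 lower without single libraries. Same-numbered libraries did not deviate together (correlations -0.0082, -0.19 and -0.098), so the numbers were not taken as pairs.

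The median over members was -0.099 with upper-quartile scaling (-0.018 over all genes), -0.099 on log2(FPKM + 1) (-0.047 over all genes), -0.15 on log2(FPKM + 0.1) (-0.070 over all genes), and -0.090 to -0.071 without single libraries. On the FPKM settings, plus 1 then plus 0.1, it was -0.091 and -0.14 for Fbxo and -0.16 and -0.16 for Asb; plus 0.1 gave -0.083 for Fbxl and -0.18 for Klhl, and the replicate block gave -0.083 for Fbxo. Without single libraries medians ran from -0.099 to -0.052 for Fbxo, -0.061 to 0.031 for Fbxl, -0.11 to -0.023 for Fbxw, -0.12 to -0.072 for Klhl, -0.18 to -0.086 for Kbtbd and -0.13 to -0.080 for Asb.

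Usp21 kept its direction but not its call on log2(FPKM + 1) (-1.15), on log2(FPKM + 0.1) (-1.34) and with the replicate block (-1.29), and ran from -1.40 to -1.22 without single libraries. Klhl40 ran from -0.21 to 0.12 and Klhl41 from -0.24 to 0.011 without single libraries. The cause of these shifts was not tested. Of the 29 members not tested, 21 had no count, and low depth and absent expression cannot be told apart there. The widest interval was that of Fbxw10 (-2.54 to 1.99), with 73 counts over the 6 libraries.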
